A study of Mus musculus with 56 samples.

Results

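Liver and lung of the same mice were compared without chrysene: of the 56 arrays of the series, 10 carried a liver (5 arrays) or a lung (5 arrays) of the vehicle group D0, and they were taken by the tissue, dose and mouse number in the sample titles. The mice were adult male MutaMouse, a transgenic strain that carries a lacZ reporter used to score mutations, were about 14 weeks old, and were gavaged with olive oil alone on each of 28 days. Organs were collected 72 h after the last gavage, and RNA was prepared from random sections of each organ. On every array the Cy5 channel held the RNA of 1 organ of 1 mouse and the Cy3 channel a universal reference RNA pooled from mouse cell lines, so a value is a log2 ratio of sample over reference, a difference of 1 on this scale is a 2-fold difference, and the bias of a probe for one dye cancels between arrays. Probes were compared if 3 or more of the 10 arrays showed Cy5 well above background.

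The liver is built mainly of hepatocytes, which secrete most plasma proteins, make bile acids, urea and glucose, burn fatty acids and metabolise foreign compounds. In the lung, flat alveolar type 1 cells carry gas exchange, alveolar type 2 cells secrete surfactant, and club cells and ciliated cells line the airways over a dense bed of capillaries and elastic matrix. Each organ also holds its own resident macrophages (Kupffer cells and alveolar macrophages) and its own specialised endothelium. In homogenised tissue a lower signal can come from fewer cells of a type or from less RNA per cell, and these cannot be told apart here.

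The organs differed at most of their measured genes. Of 22359 genes tested, limma called 12012 (53.7%), a call being an adjusted p no higher than 0.05 (Benjamini-Hochberg) together with a 1.5-fold or larger difference. These comprised 5373 genes (24.0%) higher in liver and 6639 genes (29.7%) higher in lung. Large differences ran the other way: 495 genes were at least 16-fold higher in liver, and 293 were at least 16-fold higher in lung. The values of the organs did not overlap for 15045 genes (67.3%), and the median SD over the 5 mice was 0.15 in liver and 0.14 in lung on the log2 scale. The direction of small differences depended on scaling. With each array centred on its median instead of normalised by intensity, the median difference over all genes moved from -0.05 to -0.82, and 1926 genes were called higher in liver and 13164 higher in lung, so that 12.8% rather than 44.7% of the calls pointed to liver.

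Fewer spots were detected in Cy5 on the liver arrays. Cy5 was well above background on 37.7 to 46.4% of spots in liver, where mice 1 and 5 shared a slide and had the highest shares (44.0 and 46.4%), and on 49.0 to 53.9% in lung, whereas Cy3 was so on 53.3 to 62.5% in liver and 47.8 to 54.4% in lung. Beside this stand 488 genes whose brightest probe was detected in Cy5 by all 5 liver arrays and no lung array, and 2374 genes with the opposite pattern. The part of array brightness in these counts was not tested. Genes detected in 1 organ alone passed the filter only through that organ. Their direction was thus largely set by entry and is weak support in the list counts below. For such genes only a lower bound on the fold can be given. The Cy5 bound sets the mean normalised Cy5 signal of the brighter organ against the mean, per array of the dimmer organ, of the higher of the probe's own signal and the lowest signal among probes well above background. It uses 1 channel and is open to dye bias, and it depended on the scale: for 35 of 55 genes described with such a bound it exceeded both the fold of the ratios and that of quantile-normalised Cy5. The folds given below as "at least" are therefore the lowest of these 3 values.

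**Figure D1:**
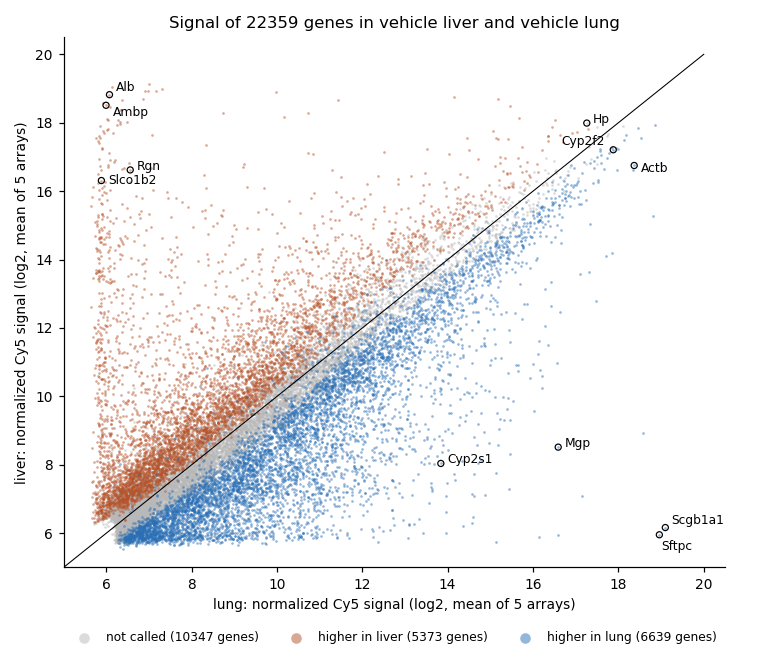
Mean normalised Cy5 signal (log2) in vehicle lung (x axis) and vehicle liver (y axis), each point 1 of 22359 genes, 5 arrays per organ, coloured by the call made on the log2 ratios; the diagonal marks equal signal. Alb and Ambp lie at the upper left, where lung signal was at background, Scgb1a1 and Sftpc at the lower right, and Hp and Cyp2f2 are bright in both organs.

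Albumin and the other secreted proteins of hepatocytes gave the clearest check of the liver label. Of 25 plasma protein genes tested, 24 were called higher in liver (24.0% of all genes) and none higher in lung (29.7%), with a median difference of 6.83 against a median of -0.05 over all genes. For Alb, which encodes albumin, the liver values were 6.51, 6.24, 6.31, 6.11 and 6.78 and the lung values 0.61, 0.37, 0.15, 0.10 and 0.08. All liver arrays lay far above all lung arrays, where the probe was not well above background, and the difference was at least 69.9-fold (Cy5 bound 6466-fold). Ambp (the precursor of alpha-1-microglobulin and bikunin) was at least 1062-fold higher in liver, Serpinc1 (antithrombin) at least 786-fold, Ttr (transthyretin) at least 113.5-fold and Fgb (the fibrinogen beta chain) at least 223-fold. Among genes measurable in both organs, Hpx, the haem scavenger hemopexin, differed by 8.21 ± 0.12 (SE), which is 296-fold (limma adjusted p = 9.51e-15). With Cy5 alone Hpx differed by 9.76, and its mean Cy3 signal was 9.84 on liver arrays and 6.55 on lung arrays.

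A few plasma protein genes had high or uneven values in lung. Hp, which encodes haptoglobin, was the member that was not called: its liver values were 6.57, 6.36, 6.40, 6.48 and 6.71 and its lung values 6.61, 6.66, 6.27, 6.76 and 6.45, which overlap (difference -0.04, limma adjusted p = 0.704). Trf, which encodes the iron carrier transferrin, was 1.69-fold higher in liver (6.77 ± 0.21 against 6.01 ± 0.22; SD, n = 5). With median centring its difference turned to -0.45, and with loess recomputed from the scanner files it was 0.39 and below the fold limit, whereas Cy5 alone gave 2.85. Its mean Cy3 signal was 12.89 on liver arrays and 9.21 on lung arrays. A second, dimmer Trf probe differed by 2.31. Vtn (vitronectin) differed by 2.78, and by 7.23 with Cy5 alone. Serpina1a, an alpha-1-antitrypsin gene whose paralogs share sequence, was high in every liver (7.51 to 7.82), whereas its lung values were -0.08, 0.26, 2.03, 0.16 and 2.63. Lungs of mice 3 and 5, which shared a slide with no other vehicle lung, thus stood above the other lungs. Mouse and slide cannot be told apart here.

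The reference channel differed between the organs at some bright probes. Although the labels give 1 reference RNA for all arrays, the mean Cy3 signal of the Alb probe, log2 and not normalised, was 13.45 on liver arrays and 5.41 on lung arrays, and that of Sftpc, the surfactant protein C gene, was 5.58 on liver arrays and 11.02 on lung arrays. Over all genes the median Cy3 difference, liver minus lung, was 0.51, against 1.196 for genes at least 16-fold higher in liver and 0.26 for genes at least 16-fold higher in lung. Among the 488 genes with Cy5 signal in liver alone, 146 also had Cy3 well above background on all liver arrays and no lung array, and 0 the reverse. Of the 2374 genes with Cy5 signal in lung alone, 20 had Cy3 on all lung arrays and no liver array, and 6 the reverse. Other bright probes did not follow their Cy5 signal: Mgp, brighter in lung in Cy5, had a mean Cy3 signal of 11.59 on liver arrays and 10.79 on lung arrays. Differences of ratios and of Cy5 alone were 6.13 and 11.80 for Alb and -8.06 and -11.99 for Sftpc. Among 138 genes described that were well above background on at least 1 array of each organ, the difference of Cy5 alone lay over 1.5-fold from that of the ratios for 51, further from 0 for 26 of them. Serpina1a (6.67 and 11.28), Hnf4a (4.51 and 8.15) and Cyp2b10 (-2.48 and -5.89) were such genes by the ratios and by Cy5 alone, named here after their values were seen. Why the reference signal differed was not tested.

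The naming rule picked liver genes of very different tasks. Rgn, which encodes the calcium-binding lactonase regucalcin, had the largest difference of ratios among genes with a symbol and well above background on all 10 arrays. Its liver values were 10.01, 10.25, 10.03, 10.38 and 9.87 and its lung values 0.76, 0.65, 0.61, 0.68 and 0.80. No lung array came near a liver array, and the ratio was 679.6-fold higher in liver. With Cy5 alone Rgn differed by 9.195, less than Hpx (9.757) and Serpina1a (11.28). The mean normalised Cy5 signal of Rgn in lung was 6.56, near the lowest signals well above background there (6.08 to 6.22). Cy3 was well above background on no lung array for Rgn, or for Slc27a2 and Itih3, named next. Slc27a2, a fatty acid transporter and very long chain acyl-CoA synthetase, followed at 398-fold, Itih3, also on the plasma protein list, at 254-fold, Cpb2 (a plasma carboxypeptidase that slows clot lysis) at 244-fold, Slc26a1 (a sulfate and oxalate carrier) at 177.5-fold, Upb1 (the last step of pyrimidine breakdown) at 159-fold and Agmat at 149-fold. Serpina3m (173-fold) and Amy1 (141.0-fold) were also named but have close paralogs, so their probes may report more than 1 gene. The Cy5 bounds named Mup20, Mup5 and Mup3, major urinary proteins that carry pheromones (at least 222-, 726- and 505.5-fold, with the same caution on paralogs), Akr1c6, a hydroxysteroid dehydrogenase (at least 1440-fold), and Bhmt, which remethylates homocysteine with betaine (at least 236-fold).

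Genes of nitrogen disposal and amino acid breakdown were higher in liver throughout. All 7 urea cycle genes were called higher in liver, against 24.0% of all genes, with differences of ratios of 3.77 to 8.47. The member at 3.77, Slc25a15, was well above background on no lung array, so only a bound holds for it. Cps1, the mitochondrial entry enzyme of the cycle, was well above background in liver alone (at least 140.2-fold). Otc, which makes citrulline, had liver values of 8.68, 8.58, 9.02, 8.77 and 8.59 and lung values of 0.35, 0.55, 0.31, 0.15 and -0.07, and was above background in 1 of 5 lungs. Ass1 and Asl, which also serve arginine synthesis outside the liver, were measured on all 10 arrays and differed by 33.6-fold and 19.6-fold. All 12 genes of the amino acid breakdown list were called higher in liver as well (median 6.30). The list also holds Uox, urate oxidase, an enzyme of purine breakdown. Gls2, the liver glutaminase, differed by 7.24 ± 0.13 (SE; 151-fold). Hal, which starts histidine breakdown, ranged from 5.99 to 6.23 in liver but was -0.91, -0.71, 1.18, -0.57 and 1.99 in lung. It was high in the lungs of mice 3 and 5, which shared a slide.

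Glucose production, fat oxidation and bile acid synthesis pointed the same way. All 10 genes of glucose and glycogen metabolism were called higher in liver (24.0% of all genes), with a median of 6.53. Gys2 (liver glycogen synthase), G6pc (glucose-6-phosphatase) and Slc2a2 (the glucose transporter GLUT2) were well above background in liver alone, with differences of at least 100.2-, 57.6- and 94.7-fold. Fbp1, a control point of gluconeogenesis, differed by 7.55 ± 0.07 (SE). Pygl, liver glycogen phosphorylase, had the smallest difference of ratios of the group (7.06-fold). Pklr was well above background on no lung array and has only a bound (at least 5.715-fold). The 12 fatty acid oxidation and ketone body genes tested were also all higher in liver, with differences of 1.21 to 4.71. Bdh1, the last enzyme of ketone body synthesis, had the largest difference (26.1-fold) and Cpt1a, which brings long-chain fatty acids into mitochondria, the smallest (2.31-fold). Cyp4a14 was below the filter.

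Of 14 genes of bile acid synthesis and transport, 13 were called higher in liver (24.0% of all genes). Cyp7a1, the rate-limiting enzyme of the classic pathway, was 5.19, 5.15, 5.92, 4.55 and 5.52 in liver and -0.15 to -0.03 in lung (at least 20.2-fold). Slc27a5, the bile acid CoA ligase (at least 491.5-fold), Slco1b2, an organic anion uptake carrier (at least 355-fold), and Abcb11, the bile salt export pump (at least 26.6-fold), were likewise above background in liver alone. Cyp7b1, which makes oxysterols for the alternative pathway, was measured in all lungs at 2.05 to 3.68 against 7.15 to 7.35 in liver. Slc10a1, the sodium-dependent bile acid uptake carrier, was the exception and its probes disagreed. The brighter probe, which stands for the gene, was 1.41 ± 0.26 in liver and 2.57 ± 0.10 in lung (SD, n = 5) and bright in every channel, whereas the dimmer probe differed by 6.39 and was well above background on all liver arrays and no lung array. The dimmer probe was placed beside it after its values were seen. Of 5075 genes with several tested probes, 96 had probes called in opposite directions. Among 46 genes described here that have several probes, 9 had another probe with a different call (Ahr, Birc5, Cdkn1a, Ephx1, Foxa2, Kdr, Krt10, Myh6 and Slc10a1), and 31 had another probe whose difference was over 1.5-fold apart.

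The factors that set hepatocyte identity were mostly higher in liver, with small differences for Foxa1 and Foxa2. Of 11 hepatocyte transcription factors, 10 were called higher in liver (24.0% of all genes) and 1 higher in lung (29.7%), with a median of 3.44. Foxa3 (at least 16.5-fold) was well above background in liver alone. Nr1i3, the xenobiotic receptor CAR, was at least 28.3-fold higher by its brighter probe, while its other probe was above background in 2 of 5 lungs. Hnf4a, a master regulator of hepatocyte genes, differed by 4.51, with 1 of 5 lungs above background. Cebpa, which both organs use, was 4.24-fold higher in liver. Foxa2 was 6.15 ± 0.30 in liver and 5.41 ± 0.10 in lung, whereas Foxa1 was 3.17 ± 0.31 in liver and 3.79 ± 0.10 in lung (SD, n = 5 each). Neither difference was firm: Foxa1 (1.54-fold higher in lung) lost its call without the liver of mouse 1, 2 or 3, where its difference was -0.57, -0.58 and -0.54, and Foxa2 (1.66-fold higher in liver) turned to -0.58 with median centring and -0.15 with Cy5 alone.

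Letters of the binding sequences of these factors were looked up in the promoters of the genes that differed most. Promoter sequences came from RefSeq (GRCm38.p6) and span 250 bases before to 50 bases after a start. Of 426 genes with a symbol that were at least 16-fold higher in liver, 331 had a promoter (405 promoters), and of 261 at least 16-fold higher in lung, 188 had one (240 promoters). The HNF4 letters CAAAGTCCA stood, on either strand, in 3.95% of liver promoters, 0.0% of lung promoters and 0.47% of all 32851 promoters. The shares in the same order were, for the C/EBP letters TTGCNNAA 19.3, 14.6 and 10.8%, and for the FOXA letters TGTTTAC 7.41, 2.92 and 3.65%. CAAGTG, a core letter string of NKX2-1 sites that is also an E-box, stood in 14.1, 16.7 and 13.6%, and TATAAA in 17.8, 12.9 and 13.6%. These shares were not tested, and a match is a string of letters and not a bound site.

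Promoters that hold such letters are shown for genes described here, each chosen because it holds a match, 5′ to 3′ on the strand of the gene and ending at the base before the start, with matches in capitals. Alb (chr5:90460720-90460869, plus strand) holds the C/EBP letters on the opposite strand. Cyp8b1 (chr9:121916306-121916455, minus strand), the bile acid 12-hydroxylase, holds HNF4 letters and then TATAAA. Cyp3a11 (chr5:145879855-145880054, minus strand), a major drug-metabolising cytochrome, holds FOXA and then HNF4 letters. Apoh (chr11:108395147-108395296, plus strand), which encodes beta-2-glycoprotein 1, holds FOXA letters. Sftpa1 (chr14:41131638-41131787, plus strand), the lung surfactant protein A gene, is shown for contrast and holds TATAAA and then the E-box letters on the opposite strand.
Alb: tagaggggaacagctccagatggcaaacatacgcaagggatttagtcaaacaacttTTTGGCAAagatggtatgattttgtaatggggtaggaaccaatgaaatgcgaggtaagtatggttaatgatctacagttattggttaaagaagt
Cyp8b1: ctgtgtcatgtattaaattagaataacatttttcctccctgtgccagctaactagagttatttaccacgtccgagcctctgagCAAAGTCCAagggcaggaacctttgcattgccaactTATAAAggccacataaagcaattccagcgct
Cyp3a11: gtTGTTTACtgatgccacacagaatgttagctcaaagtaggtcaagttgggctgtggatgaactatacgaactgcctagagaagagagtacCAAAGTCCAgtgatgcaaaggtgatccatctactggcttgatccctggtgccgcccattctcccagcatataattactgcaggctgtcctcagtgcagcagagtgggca
Apoh: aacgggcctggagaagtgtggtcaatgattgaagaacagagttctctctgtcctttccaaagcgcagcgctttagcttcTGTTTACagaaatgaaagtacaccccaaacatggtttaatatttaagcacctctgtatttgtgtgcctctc
Sftpa1: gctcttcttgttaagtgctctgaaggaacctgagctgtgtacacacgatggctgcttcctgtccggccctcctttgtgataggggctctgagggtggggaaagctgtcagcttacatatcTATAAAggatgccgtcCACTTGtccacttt

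Apoh and Cyp8b1 were well above background in liver alone (at least 665- and 33.3-fold), as was Cyp3a11 (at least 181-fold). Sftpa1 had lung values of 7.11, 7.17, 6.59, 7.42 and 6.94 and liver values of 0.07 to 0.62 (at least 108.8-fold higher in lung).

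Surfactant and alveolar genes marked the lung arrays. Of 11 alveolar type 2 genes tested, 10 were called higher in lung, against 29.7% of all genes, with a median of -4.88. Sftpc, a hydrophobic surfactant protein made by type 2 cells alone, was 8.41, 8.48, 7.67, 8.80 and 7.86 in lung and 0.09 to 0.25 in liver. The groups were far apart, by at least 268-fold (Cy5 bound 7570-fold). Sftpb differed by at least 106.5-fold. Sftpd, a collectin of innate defence, was measured in both organs and differed by -6.90 ± 0.15 (SE), or 119.5-fold (limma adjusted p = 3.23e-13). With Cy5 alone Sftpd differed by -9.55, and its mean Cy3 signal was 5.92 on liver arrays and 9.06 on lung arrays. Ctsh, the cathepsin that trims surfactant precursors, was not called (6.00 ± 0.11 in liver, 6.37 ± 0.14 in lung; SD, n = 5). All 8 alveolar type 1 genes tested were higher in lung, with a median of -6.28: Ager (the receptor RAGE) was at least 76.0-fold and Akap5 at least 108-fold higher, and Aqp5 (a water channel) at least 162-fold by its brighter probe, while a second probe was above background in 2 of 5 livers. Clic5 and Emp2 differed by 82.7-fold and 78.9-fold, and Hopx by least (-1.40, or -4.07 with Cy5 alone), with liver values of 3.50 to 4.00.

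Airway genes split into steady and uneven members. Scgb1a1, the club cell secretory protein, was 8.99, 9.07, 8.50, 9.40 and 8.63 in lung and -0.08 to 0.05 in liver (at least 488.5-fold). Of 6 airway secretory genes tested, 5 were called higher in lung (29.7% of all genes), and Aldh1a7 was not (5.61 ± 0.06 in liver, 5.68 ± 0.21 in lung; SD, n = 5). With Cy5 alone Aldh1a7 was called higher in liver (0.62). Scgb3a1, a secretoglobin of larger airways, was 2.78, 3.00, 2.76, 6.02 and 6.11 in lung. Bpifa1, an antimicrobial protein of upper airways, was 2.75, 3.76, 1.31, 6.45 and 7.11, and Muc5b, a gel-forming mucin, was 2.36, 1.59, 2.23, 4.47 and 5.16. Lungs of mice 4 and 5 were the high ones for all of these. Ciliated cell genes were steadier: all 9 were higher in lung (29.7% of all genes). Of these, 8 were well above background in lung alone and passed the filter only through it. Foxj1, the master regulator of motile cilia, was 3.37 to 3.97 in lung and -0.27 to 0.03 in liver (at least 11.8-fold).

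Lung factors were the counterpart of the hepatocyte factors. All 9 lung transcription factors tested were called higher in lung (29.7% of all genes), with a median of -3.29. Of these, 6 were well above background in lung alone and passed the filter only through it. Foxp2 was below the filter. Nkx2-1, the regulator of lung epithelium and surfactant genes, was 4.24, 4.23, 4.34, 4.06 and 4.47 in lung and -0.03 to 0.06 in liver (at least 15.8-fold). Tbx4 and Tbx5, T-box factors of lung mesenchyme, were at least 18.6- and 10.5-fold higher in lung. Gata6, which both organs use in development, was above background on all 10 arrays and differed by -1.56.

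Genes of vessels and stroma were mostly higher in lung. All 9 pan-endothelial genes were called higher in lung (29.7% of all genes, against which the other counts here are also read; median -3.34), from Vwf, von Willebrand factor (26.5-fold), to Tie1 (-1.64). Kdr, the VEGF receptor that sinusoids also carry, was 4.59 to 5.60 in liver and 6.56 to 7.11 in lung (3.33-fold). A second Kdr probe of nearly equal signal differed by -0.20 and was not called. All 7 lung capillary genes were higher in lung, led by Tmem100, a BMP target (at least 47.5-fold). Of 12 fibroblast and elastic matrix genes, 10 were higher in lung: Mfap4, a microfibril protein, by 6.34 ± 0.15 (SE), Col1a1 by 3.45 ± 0.21 and Eln, elastin, at least 4.08-fold, whereas Dcn (decorin) and Lox (lysyl oxidase) were not called. All 7 smooth muscle genes were higher in lung, with Cnn1 (calponin) differing by -4.50 and Myl9 by 20.6-fold. The naming rule added Mgp, an inhibitor of calcification (297-fold, lung 6.20, 5.43, 5.71, 5.97 and 6.01, liver -3.09 to -1.64), and Gsn (gelsolin, 166-fold). It also added Sparcl1 (129-fold), Cbr2, a lung carbonyl reductase (211-fold), Tspan13 (95.6-fold), and Anxa1, an anti-inflammatory annexin (78.5-fold). For Anxa1 the difference was -6.29 on the log2 scale, but -4.15 with a second probe and -5.63 with Cy5 alone.

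**Figure D2:**
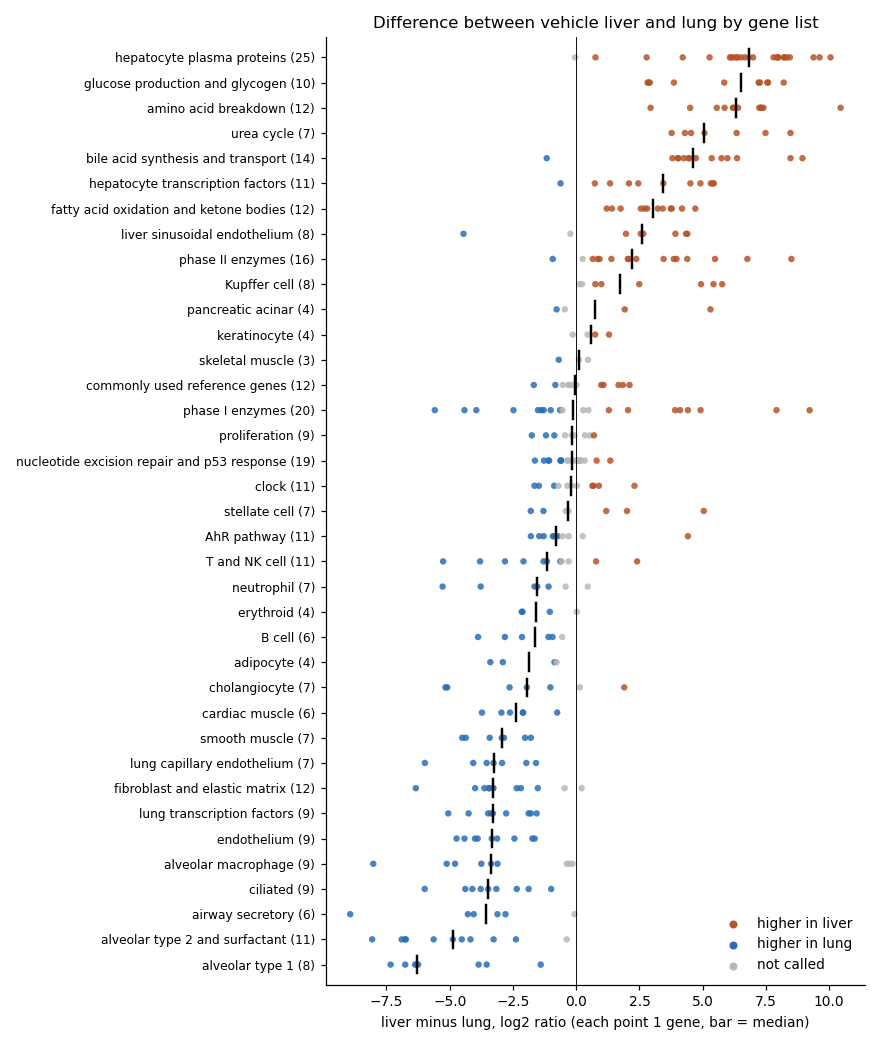
Difference between vehicle liver and vehicle lung (log2 ratio, liver minus lung) for the tested members of 37 gene lists, 1 point per gene, coloured by call, with a bar at the median of each list and the number tested in parentheses. Hepatocyte lists lie right of 0 and alveolar, ciliated, endothelial and stromal lists left of it; the medians of the phase I, clock, reference gene, stellate cell, T and NK cell, skeletal muscle and keratinocyte lists changed sign under at least 1 alternative processing.

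Genes of the liver's own endothelium mostly ran against that pattern. Of 8 sinusoidal endothelial genes, 6 were called higher in liver (24.0% of all genes) and 1 higher in lung (29.7%), with a median of 2.60. Clec4g, a sinusoidal lectin, was 6.13, 5.63, 6.39, 6.39 and 5.88 in liver and 1.19 to 1.98 in lung (21.0-fold), and Stab2, the hyaluronan scavenger receptor, differed by 20.2-fold. Gata4, which directs the sinusoidal programme, differed by 2.65 ± 0.14 (SE). Lyve1, a hyaluronan receptor of lymphatic vessels and sinusoids, went the other way, with lung values of 5.46, 6.99, 5.94, 5.23 and 4.51 and liver values of 2.12, 0.97, 0.71, 1.03 and 1.02 (21.9-fold higher in lung). Stab1 was not called (2.71 ± 0.23 in liver, 2.94 ± 0.21 in lung; SD, n = 5).

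Markers of each organ's resident macrophages were mostly higher in that organ. Of 8 Kupffer cell genes tested, 6 were called higher in liver (24.0% of all genes): Clec4f, the lectin that defines Kupffer cells in mice, was 5.02 to 6.06 in liver and -0.12 to 0.30 in lung (at least 23.1-fold), Vsig4 differed by 4.93, with 2 of 5 lungs above background, and Cd5l, an anti-apoptotic secreted protein, was 5.14, 5.78, 6.27, 6.36 and 6.74 in liver. C1qa and C1qb, complement genes of most tissue macrophages, were not called (0.23 and 0.13), and C1qc was 0.76 higher in liver on the log2 scale, but -0.53 with median centring. Of 9 alveolar macrophage genes, 6 were called higher in lung (29.7% of all genes) and the other 3 (Pparg, Mrc1 and Fabp4) were not called. Chil3, the chitinase-like protein Ym1, was 2.40, 4.42, 3.39, 3.46 and 5.41 in lung and -4.69 to -3.79 in liver (259.7-fold). Ear2 and Ear1, eosinophil-associated ribonucleases, differed by -5.12 and -4.79, and Siglecf, a lectin of alveolar macrophages and eosinophils, by at least 6.42-fold. Marco, a scavenger receptor, spread from 2.58 to 6.27 over the lungs.

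Blood and immune genes were mostly higher in lung, where 29.7% of all genes were called higher. Of 7 neutrophil genes 5 were higher in lung (S100a9 by 38.8-fold), of 6 B cell genes 5 (Cd79b by 3.88 on the log2 scale), and of 4 erythroid genes 3 (Hba-a1, alpha-globin, by 4.45-fold). Of 11 T and NK cell genes, 7 were higher in lung and 2 higher in liver, and the median of -1.16 became 0.24 when only probes above background on all arrays were kept. Gzma, granzyme A, was 4.39 to 5.81 in lung and -0.38 to 0.12 in liver (38.4-fold). Cd4, in turn, was 5.30-fold higher in liver, and Cd3e 1.72-fold, although its difference turned to -0.44 with median centring. Stellate cell genes showed no common direction: of 7 tested, Colec11 (5.04), Hand2 and Rgs5 were called higher in liver and Lrat, which stores vitamin A, and Des, desmin, higher in lung. The 7 cholangiocyte genes, which lung epithelium also expresses, were higher in lung in 5 cases (Krt19 by 36.0-fold) and higher in liver for Sox9 (at least 2.73-fold).

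Phase I enzymes of xenobiotic metabolism were called in both directions. Of 20 phase I genes tested, 8 were called higher in liver and 9 higher in lung, shares of the list to be read against 24.0 and 29.7% of all genes, and the median of -0.13 turned to 0.03 with arrays scaled to equal spread. Cyp3a11 was 9.40, 8.60, 8.63, 9.61 and 9.35 in liver and -0.28 to 0.11 in lung. Cyp2c29 (at least 242-fold) and Cyp1a2, which the Ah receptor controls (at least 21.3-fold), were also above background in liver alone, and Cyp2e1 differed by 4.91 ± 0.24 (SE). With Cy5 alone Cyp2e1 differed by 9.04, its second probe differed by 6.93, and its mean Cy3 signal was 11.63 on liver arrays and 5.77 on lung arrays. In the lung the leading member was Cyp2s1, an extrahepatic cytochrome, with values of 3.59, 3.23, 3.55, 3.37 and 3.39 in lung and -1.93, -1.85, -2.11, -1.94 and -2.98 in liver (48.1-fold). Cyp4b1, an activating enzyme of lung toxicants, was 21.4-fold higher in lung and Fmo2, the pulmonary flavin monooxygenase, 15.4-fold. With Cy5 alone Fmo2 differed by -5.93, close to Cyp2s1 (-5.945) and Cyp2b10 (-5.89), and Cyp4b1 by -4.75. The mean Cy3 signal of Fmo2 was 6.31 on liver arrays and 8.68 on lung arrays. Cyp2f2, the club cell cytochrome, was bright in both organs and 2.01-fold higher in lung. Cyp2b10 spread widely over the livers (3.75, 1.33, 3.53, 3.25 and 4.17), all below the lungs (5.27 to 6.19). Por, the reductase that serves microsomal cytochromes, was 2.85-fold higher in lung.

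**Figure D3:**
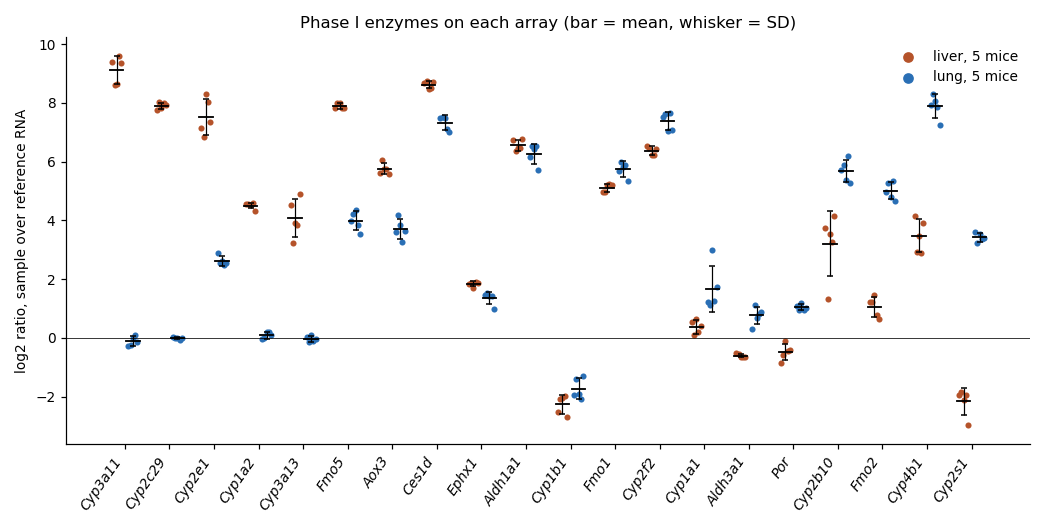
Log2 ratio of sample over reference RNA for 20 phase I genes on each of the 10 arrays (points), with the mean (bar) and SD (whisker) of the 5 livers and 5 lungs. Cyp3a11, Cyp2c29, Cyp1a2 and Cyp3a13 lie near 0 in lung, where the probes plotted were not well above background (a second Cyp3a13 probe was, and differed by 1.27); Cyp2b10, Fmo2, Cyp4b1 and Cyp2s1 are higher in all lungs than in any liver.

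Genes of conjugating enzymes, in turn, were mostly higher in liver. Of 16 phase II genes tested, 14 were called higher in liver (24.0% of all genes) and 1 higher in lung (29.7%), with a median of 2.22. Ugt2b36 and Ugt2b1, glucuronosyltransferases, were at least 109- and 115.5-fold higher. Tpmt, thiopurine methyltransferase, differed by 44.8-fold, Gsta3 by 10.9-fold and Gstp1 by 3.96 ± 0.18 (SE). On the log2 scale Gsta3 differed by 3.45, but by 2.05 with Cy5 alone and by 2.32 with its second probe. Gsto1, a glutathione transferase of the omega class, was higher in lung (0.06 ± 0.59 against -0.87 ± 0.27; SD, n = 5), although the groups overlapped. Nqo1, a quinone reductase under Ah receptor and Nrf2 control, was not called (-1.21 ± 0.17 in liver, -1.46 ± 0.25 in lung; limma adjusted p = 0.0749) and turned to -0.99 with median centring.

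The Ah receptor pathway, through which polycyclic aromatic hydrocarbons act, had 7 of 11 genes tested called higher in lung, against 29.7% of all genes, and 1 called higher in liver, Cyp1a2 (at least 21.3-fold). Cyp1a1, its best known target, was 0.54, 0.10, 0.64, 0.18 and 0.40 in liver, above background in 2 of 5 livers, and 1.21, 1.11, 2.99, 1.25 and 1.75 in lung. Every lung exceeded every liver, mouse 3 by most (difference -1.29 ± 0.30, SE; limma adjusted p = 0.00175). Cyp1b1 was not called (-0.54, limma adjusted p = 0.0147, below 1.5-fold), but passed both limits without the liver of mouse 2, 3 or 4 (-0.59, -0.59 and -0.61) or the lung of mouse 1 or 4 (-0.59 and -0.63). Tiparp, a repressor of the receptor, was 3.47-fold higher in lung, and Nfe2l2, which encodes Nrf2, 2.75-fold. Ahr itself was 1.09 to 2.26 in lung and 0.11 to 1.29 in liver, which overlap; its call was lost when the median of its probes was used (-0.58). Ahrr was below the filter.

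Of 19 DNA repair and p53 response genes tested, 7 were called higher in lung, 2 higher in liver and 10 not called, where 53.7% of all genes were called. Cdkn1a, the cell cycle inhibitor p21, was -1.22, -0.94, 0.39, -1.31 and -1.07 in lung and -2.74, -2.44, -1.58, -2.55 and -2.98 in liver, with mouse 3 highest in both organs (difference -1.63). A second Cdkn1a probe differed by 0.30 and was not called. Ccng1 and Mdm2, further p53 targets, were higher in lung by 1.28 and 1.07 on the log2 scale. Trp53 itself was 1.75-fold higher in liver, although it turned to -0.30 with median centring and to -0.02 with Cy5 alone. Among excision repair genes, Rad23b was 2.54-fold higher in liver and Cetn2, which shares a complex with Xpc, was higher in lung (-1.10). Xpc itself was called higher in lung by a small margin (-0.61) and fell under the fold limit without the liver of mouse 3 (-0.57) or the lung of mouse 2 (-0.54) or 3 (-0.58). Ddb1 was likewise at the limit (-0.59; -0.54 without the liver of mouse 5, -0.58 and -0.56 without the lung of mouse 1 or 3).

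Of 12 genes often used to normalise expression, 5 were called higher in liver, 2 higher in lung and 5 were not called, a share called near that of all genes (53.7%). Actb was 3.20-fold higher in lung (0.03 ± 0.19 in liver, 1.71 ± 0.17 in lung; SD, n = 5) and Gapdh 3.19-fold higher in liver (0.02 ± 0.10 against -1.66 ± 0.19), and both kept their direction under every scaling tried. Pgk1 was 3.59-fold higher in liver. Tbp (-0.13), Hprt (-0.30) and Ppia (-0.27) were not called, although Tbp and Hprt were called higher in lung with median centring (-1.39 and -0.93) and Ppia with recomputed loess (-0.81). Of 9 proliferation genes 3 were called higher in lung, among them Mki67 (2.29-fold) and Pcna (3.38-fold), and Bub1 higher in liver, against 29.7 and 24.0% of all genes, although Bub1 was well above background in 0 of 5 livers and 4 of 5 lungs. The call on Bub1 turned to -0.68 with median centring and -0.27 with Cy5 alone, and the third lung call, Birc5, is 1 of the genes whose probes disagreed. Clock genes gave 4 calls for liver, 3 for lung and 4 for neither among 11 tested, where 24.0 and 29.7% of all genes were called for liver and lung, led by Hlf in liver (4.93-fold) and Per1 in lung (-1.65), and Npas2, Cry1 and Ciart were below the filter. The liver calls on Arntl, Nr1d1 and Nr1d2 turned to -0.44, -0.63 and -0.71 with median centring.

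Marker genes of tissues outside the labels were uneven between mice. All 6 cardiac muscle genes tested were called higher in lung, a call made for 29.7% of all genes. Myh6, the atrial myosin heavy chain, was 0.22, 0.36, 6.16, 6.12 and 5.86 in the lungs and -0.14 to 0.21 in the livers, and Myl7, the atrial light chain, was 0.38, 0.07, 4.69, 4.08 and 4.83. Lungs of mice 3, 4 and 5 were thus high and those of mice 1 and 2, which shared a slide, were near the livers. A second Myh6 probe differed by -0.22 and was not called. Tnnt2 and Tnni3 followed the same mice, and so did Myl4 (-0.25, 0.06, 3.94, 3.33 and 4.47), whereas Actc1 was 1.90 to 2.73 in all lungs. The lung arrays also gave the adipocyte gene Cfd, adipsin, at 3.33, 0.61, 1.95, 6.21 and 4.74, and Adipoq, adiponectin, at 0.30, -0.05, 0.06, 2.29 and 1.36, both highest in mice 4 and 5. The call on Adipoq (0 of 5 livers and 3 of 5 lungs above background, limma adjusted p = 0.05) was lost when any 1 liver was left out and without the lung of mouse 4 or 5. Of 4 adipocyte genes tested 3 were called higher in lung. Of 3 skeletal muscle genes, only Ckm was called, with 0 of 5 livers and 3 of 5 lungs above background, and it lost its call without the lung of mouse 5. The part of other tissue in these lungs was not tested.

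**Figure D4:**
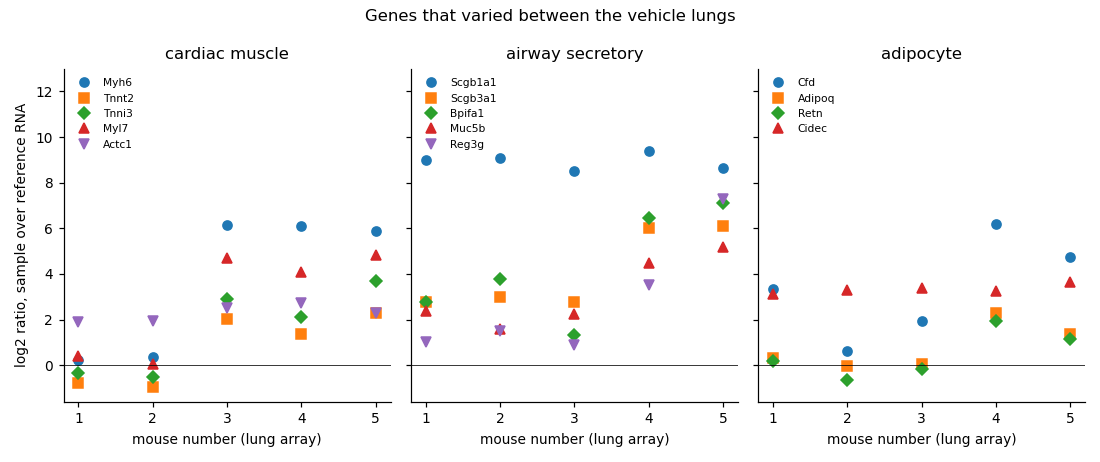
Log2 ratio of sample over reference RNA in the lungs of the 5 vehicle mice (x axis, mouse number) for cardiac muscle, airway secretory and adipocyte genes. Cardiac genes are high in mice 3, 4 and 5 except for Actc1, the airway genes Scgb3a1, Bpifa1, Muc5b and Reg3g and the adipocyte genes Cfd, Adipoq and Retn in mice 4 and 5, while Scgb1a1 and Cidec differ little.

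Of 4 pancreatic acinar genes tested, 2 were called higher in liver (24.0% of all genes) and 1 higher in lung (29.7%). Amy2a5, a pancreatic amylase gene with close paralogs, was 5.05 to 5.59 in liver and -0.08 to 0.19 in lung, and Ctrb1 was 1.92 higher in liver on the log2 scale, while Cela1, Cela2a and Pnlip were below the filter. Among 4 keratinocyte genes tested, to be read against the same shares, Sprr1a and Krt10 were called higher in liver and Krt14 and Lor were not called. Krt10 is 1 of the genes whose probes disagreed.

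The genes that varied most between mice of 1 organ were named by their SD. In liver these were Nat8f5 (2.78, 5.62, 1.94, 5.99 and 5.55), Moxd1 (3.09, 5.28, 5.00, 5.17 and 1.80), Mfsd2a, a lysolipid transporter (0.16, -0.54, 3.21, 0.85 and 2.55), Rgs16, a regulator of G protein signalling (3.09, -0.74, 2.93, 2.16 and 1.77), and Cyp26b1, which degrades retinoic acid (2.95, -0.60, -0.78, -0.44 and 1.58). Livers of mice 1 and 5, which shared a slide, were the lowest for Moxd1 and the highest for Cyp26b1. The 5 genes did not share 1 order of the mice. Cyp26b1 gave 3.29, 0.06, -0.68, 0.69 and 1.26 in the lungs of the same mice, so mouse 1 was highest and mouse 3 lowest in both organs. In lung the rule named Myh6, Myl4, Bpifa1, Reg3g, an antibacterial lectin (0.87 to 7.30), and Saa3, an acute-phase gene (-4.85 to 1.79). Both were highest in the lung of mouse 5. Over the livers Reg3g was -0.17 to 0.19 and Saa3 -2.52 to -1.89.

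Mice dosed with chrysene, which are other animals, allowed the organ difference to be measured again. In a fit of all 37 liver and lung arrays, 11974 genes were called at D0, 12121 (54.2%) at D1 (17.5 mg per kg per day), 11998 (53.7%) at D2 (50 mg) and 12153 (54.4%) at D3 (150 mg). Of those called at D0, 10520 (87.9%) were called in 1 direction at all 4 doses, and 0 were called in the opposite direction at any dose. Rgn, above background on all vehicle arrays, differed by 9.41, 9.22, 9.54 and 9.38 and Mgp by -8.21, -8.44, -8.40 and -8.37 at D0, D1, D2 and D3. The change of the organ difference with dose was called by limma for 0 genes at each dose, where 934, 783 and 2099 genes had an unadjusted p under 0.05 and the lowest adjusted p was 0.530, 0.705 and 0.231. Cyp1a1 differed by -1.29 at D0 and by -0.21, -0.48 and -0.40 at D1, D2 and D3 (limma adjusted p of the change at D3 0.42). Among the 379 genes plotted, the difference at D3 was farthest from that at D0 for 4 muscle and keratinocyte genes. Acta1, skeletal muscle actin, differed by 0.10 at D0 and -3.82 at D3, and Lor, a keratinocyte envelope protein, by -0.14 and -2.95. At D3 the lungs spread from -2.42 to 7.39 for Acta1 and from 0.89 to 7.71 for Lor. Without the D3 lungs of mice 17 and 19 the D3 differences were -0.07 for Acta1 and -0.34 for Lor. These lungs were left out because earlier results of these data had their muscle markers apart, so the values without them are a description.

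**Figure D5:**
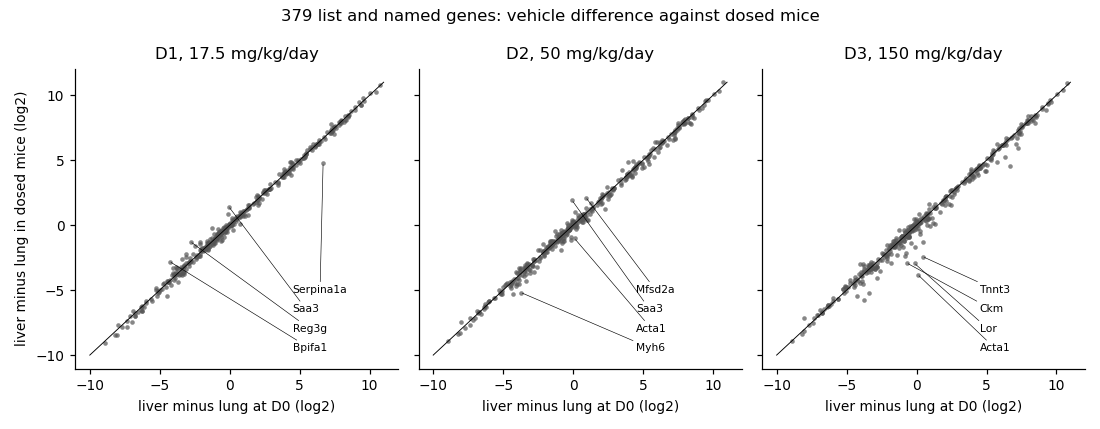
Difference between liver and lung (log2) in dosed mice (y axis) against the same difference at D0 (x axis) for 379 genes of the lists and the naming rule, by dose; the line marks equality and the 4 genes farthest from it are named. Points follow the line at each dose, and the genes farthest below it at D3 are the muscle genes Acta1, Ckm and Tnnt3 and the keratinocyte gene Lor.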

How the data were processed

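Per the file headers and the study's methods, intensities were read by a scanner and extracted with Feature Extraction, and the authors deposited them as median Cy5 (sample) and Cy3 (reference) intensity per spot, with no dye swap. The deposited log2 ratios were made by the authors from median signals, without background subtraction, by LOWESS within each array. Loess recomputed here on the same intensities correlated with the table at 0.9967 to 0.9978 per array, whose medians were -0.0335 to -0.0214, so that the scale is log2 and the direction is sample over reference.

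Of 55681 probes, 26413 (47.4%) were named through RefSeq accessions. Of 29490 probes with Cy5 well above background on 3 or more arrays, 54 flagged as non-uniform were left out and 29436 were tested, standing for 22359 genes (14423 with a symbol), each represented by its brightest probe. The test was limma 3.58.1 in R 4.3.3 on 10 arrays with p-values adjusted over all probes tested, tried first on simulated data. Tables were made with Python 3.11.15 and pandas 2.3.3. The 5 arrays per organ limit the precision, and slides hold 1 organ each, so slide entered as a random block only.

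Mouse numbers mark the same animals in both organs, so the samples are paired by animal. The main test did not use this pairing, and mouse entered as a block in an alternative only. Deviations from the group means correlated between organs of the same mouse at 0.216, 0.0396, 0.147, 0.0627 and 0.0379. The members, lists and tests were chosen with earlier results of these data known. Genes were named as the 12 with the greatest difference in each direction among called genes above background on all arrays, the 10 with the greatest Cy5 bound in each direction, the 5 with the highest SD in each organ, and members of the lists. Not all genes so named are described, and some are not reported here. Alternatives covered normalisation, background, the Cy5 channel alone, scaling, filters, blocks, the fold test, the choice of probe and each array left out. The rule that a lower bound is the lowest of 3 folds was chosen after seeing the data.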

Additional observations from a re-analysis of the deposited data

Results flagged for a closer look

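In 385 groups of 5 arrays (genes described and list means, all log2 ratios), 17 had 1 array set apart from the other 4 by a gap of more than 0.71 of the range, and chance flags about 1 in 20 groups. In liver, mouse 5 stood apart for Cyp2s1 (-2.98, others -2.11 to -1.85), Ear2 (2.91, others 1.497 to 1.824) and Krt19 (-4.03, others -3.27 to -3.13). It also had the highest mean of the urea cycle list (5.66, others 5.50 to 5.54) and of the phase II list (4.23, others 4.03 to 4.07). The liver of mouse 2 was apart for Bhmt (8.16, others 7.89 to 7.97) and Cd3e (0.0025, others -0.38 to -0.32), and in the means of the phase I list (3.71, others 3.902 to 3.97) and the alveolar type 2 list (0.35, others 0.16 to 0.21). The liver of mouse 1 was apart for Lyve1 (2.12, others 0.71 to 1.03).

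In lung, mouse 5 stood apart for Akap5 (6.55, others 6.99 to 7.09), C1qa (3.89, others 2.91 to 3.18), Ephx1 (0.99, others 1.41 to 1.52) and Pgk1 (-2.72, others -3.11 to -3.05), and in the mean of the lung capillary list (3.03, others 3.38 to 3.52). The lung of mouse 3 was apart for Cdkn1a (0.39, others -1.31 to -0.94), and that of mouse 2 in the mean of the ciliated list (2.89, others 3.18 to 3.27). Leaving out any of these arrays kept the counts of called genes within 1.5 times those from all 10 arrays.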

How the results depend on the processing

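Of 21 alternatives, the total of called genes stayed within 1.5 times 12012 in all, and the calls by direction in all but 2. Median centring gave 1926 genes higher in liver and 13164 higher in lung. Keeping only probes above background on all arrays gave 4156 higher in liver and 4046 higher in lung, of 14407 genes tested. With the replicate block (mouse number) 12028 genes were called, 12010 of them the same genes in the same direction. Leaving out 1 array gave 5301 to 5407 genes higher in liver and 6561 to 6672 higher in lung. Of 200 genes described, 120 were run under all alternatives, and 82 of these kept their call (or lack of one) throughout; the other 80 were not tested where all arrays had to be above background, and 69 of them kept it in the rest. Sign changes are listed where a called gene turned or an uncalled gene was called the other way. With median centring this held for Acta1 (-1.28), Arntl (-0.44), Bub1 (-0.68), C1qa (-0.73), C1qb (-0.97), C1qc (-0.53), Cd3e (-0.44), Foxa2 (-0.58), Krt10 (-0.35), Nqo1 (-0.99), Nr1d1 (-0.63), Nr1d2 (-0.71), Sprr1a (-0.067), Trf (-0.45) and Trp53 (-0.30). With Cy5 alone it held for Aldh1a7 (0.62), Bub1 (-0.27), Foxa2 (-0.15) and Trp53 (-0.024), and with the median of a gene's probes for Birc5 (0.82) and Slc10a1 (2.61). The cause was not tested. Of 37 lists, 7 had a median whose sign changed under some alternative. Probes dim in 1 organ give only bounds, and genes without a named probe were not described.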
